A study of Sorghum bicolor with 12 samples.

Results

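Dhurrin is the cyanogenic glucoside of sorghum, and 6 of the 33897 genes in the deposited table are described here as its synthesis and breakdown genes. They were chosen by identifier, from product names for the enzymes that make dhurrin and for the lyase that frees cyanide from it. Their values were not used for the choice, but earlier results of these data were known when it was made. Leaves of sorghum (Sorghum bicolor) were studied in 4 groups of 3 libraries, namely the cultivar Jinliang 5 (JL) under drought, JL with normal water (JL control), the cultivar Sanchisan (SCS) under drought, and SCS with normal water (SCS control). Library totals were 15.04 to 18.36 M counts. The labels state neither how long the drought lasted nor how old the plants were. Nor do they say whether libraries of the same group come from separate plants, so a p-value here reflects the spread between libraries, which could be technical.

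Dhurrin is made from the amino acid tyrosine. A first cytochrome P450 turns tyrosine into an oxime, a second P450 turns the oxime into a hydroxynitrile, and a glucosyltransferase adds glucose, which makes the compound stable enough to store in the vacuole. When tissue is crushed, a beta-glucosidase removes the glucose and a hydroxynitrile lyase splits the rest into 4-hydroxybenzaldehyde and hydrogen cyanide, a defence against herbivores. Sorghum leaves are known to be most cyanogenic when young and in some settings under drought, and dhurrin is also discussed as a nitrogen store.

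The gene of the first step was LOC8061413, tyrosine N-monooxygenase (CYP79A1), at positions 1144020 to 1146258 of chromosome 1, plus strand. The gene of the second step was LOC8060873, 4-hydroxyphenylacetaldehyde oxime monooxygenase (CYP71E1), at 1048557 to 1050683 of chromosome 1, minus strand. A gene named as like it, LOC8060872 (called CYP71E1-like here), lay at 1031540 to 1033883, also on the minus strand, and its own role is not known from its name. The glucosyltransferase gene was LOC8060874, cyanohydrin beta-glucosyltransferase (UGT85B1), at 1152299 to 1154106 of chromosome 1, plus strand. On the breakdown side, LOC110435085 was named P-(S)-hydroxymandelonitrile lyase (the lyase) and lay at 66773690 to 66778436 of chromosome 4, plus strand. LOC110435343 was named as like that lyase (the lyase-like gene) and lay at 67142808 to 67146248 of chromosome 5, minus strand. The positions are those of the deposited table, and all 6 genes had the same start and end in the RefSeq gene table of assembly Sorghum_bicolor_NCBIv3.

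Levels are given as deposited FPKM, fragments per kilobase of gene length and per unit of library size, which allow genes of different length to be set side by side. Fold changes come from the edgeR quasi-likelihood F test on the counts, with Benjamini-Hochberg adjusted p over the 20873 genes that passed a filter on low counts, and all 6 dhurrin genes passed it. Adding the 6 genes, JL drought library 2 had 34914 counts, against 6895 and 5739 counts in JL drought libraries 1 and 3. SCS drought library 3 stood apart in the other direction, with 5574 counts against 19959 and 12555 counts in SCS drought libraries 1 and 2. The control libraries held 5816, 3574 and 6192 counts in JL and 2647, 5766 and 3010 counts in SCS. Some of these library differences went beyond the dhurrin genes. The leading direction of variation within groups, computed without the 6 genes, held 41% of the within-group variance. Its scores were highest in JL drought 2 (83.8) and SCS drought 2 (79.1), while JL drought 1 (-92.0) and SCS drought 3 (-71.7) had the lowest. The scores did not follow the dhurrin counts in every library. SCS drought 1, with the most dhurrin counts of its group, scored -7.37, and JL drought 3, with the fewest of its group, scored 8.14.

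CYP79A1, the committing step of synthesis, had counts in all JL libraries and was low in SCS libraries, although JL drought 3, with 25 counts, was below SCS drought 1 and 2. JL drought libraries 1 to 3 had 3.53, 359 and 0.831 FPKM, against 20.3, 4.88 and 2.73 FPKM in JL control. JL drought 2 was far above all other libraries, while JL drought 1 and 3 lay within or below the range of JL control. SCS drought libraries had 37, 55 and 0 counts (0.955, 1.28 and 0 FPKM), against 0, 2 and 5 counts (0, 0.0375 and 0.128 FPKM) in SCS control. A count of 0 allows up to 3 counts by sampling alone, and the SCS groups overlapped at 0. Group means fell in the order JL drought (121 ± 206 FPKM, SD, n = 3), JL control (9.31 ± 9.59), SCS drought (0.746 ± 0.666) and SCS control (0.0553 ± 0.0659), and of the neighbours in that order only JL control and SCS drought did not overlap.

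CYP71E1, the second step, was better expressed and followed the same order of means. It had 25.2, 204 and 74.3 FPKM in JL drought, against 42.4, 25.7 and 21.9 FPKM in JL control. It had 14.5, 28.1 and 0.582 FPKM in SCS drought, against 3.44, 5.09 and 6.95 FPKM in SCS control. JL drought 2 was above all other libraries and SCS drought 3 below them, and drought and control overlapped in both cultivars. Means were 101 ± 92.6 FPKM in JL drought, 29.99 ± 10.9 in JL control, 14.4 ± 13.8 in SCS drought and 5.16 ± 1.76 in SCS control (SD, n = 3), with overlap between all neighbours in that order.

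CYP71E1-like had a pattern of its own. It had 109, 51.1 and 5.32 FPKM in JL drought, against 14.2, 8.40 and 13.5 FPKM in JL control, with overlap. It had 0, 0 and 35.6 FPKM in SCS drought, against 13.9, 66.2 and 0.615 FPKM in SCS control, also with overlap. SCS drought 3, the lowest library for CYP71E1, was the highest of its group here. Means were 55.0 ± 51.7 FPKM in JL drought, 12.04 ± 3.16 in JL control, 11.9 ± 20.5 in SCS drought and 26.9 ± 34.7 in SCS control (SD, n = 3), and all groups that were next to each other in level overlapped. How reads shared by this pair of similar genes were assigned is not stated in the labels. In SCS drought 1 and 2 CYP71E1-like had 0 counts while CYP71E1 had 559 and 1197, and in SCS drought 3 it had 1797 counts while CYP71E1 had 28.

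UGT85B1, which adds the glucose, was the only synthesis gene to pass a test in the comparisons of the full set of libraries. It had 18.3, 280 and 10.8 FPKM in JL drought, against 36.4, 41.5 and 48.8 FPKM in JL control. In JL, drought library 2 lay above the narrow range of the control libraries and the other drought libraries lay below it. It had 105, 97.9 and 4.87 FPKM (3435, 3542 and 199 counts) in SCS drought, against 0.904, 1.27 and 0.881 FPKM (38, 57 and 29 counts) in SCS control. Every SCS drought library lay above every SCS control library, including library 3, in which CYP79A1 and CYP71E1 were lower than in SCS drought 1 and 2. Means were 103 ± 153 FPKM in JL drought, 42.2 ± 6.26 in JL control, 69.2 ± 55.9 in SCS drought and 1.02 ± 0.217 in SCS control (SD, n = 3). SCS control was the lowest group and did not overlap JL control, the next in level, while the 3 higher groups overlapped.

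The lyase, which acts after the glucose has been removed, had the highest FPKM of the 6 genes in 10 of the 12 libraries. CYP71E1-like was higher in JL drought 1 and in SCS control 2. The lyase had 77.2, 523 and 94.6 FPKM in JL drought, against 123, 46.1 and 92.2 FPKM in JL control, with overlap. It had 447, 194 and 73.2 FPKM in SCS drought, against 31.1, 31.0 and 66.1 FPKM in SCS control. All SCS drought libraries were above all SCS control libraries, with library 3 only just so. Means were 232 ± 253 FPKM in JL drought, 87.1 ± 38.7 in JL control, 238 ± 191 in SCS drought and 42.7 ± 20.3 in SCS control (SD, n = 3), and all groups next to each other in level overlapped.

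The lyase-like gene was lower than the lyase in every library and ranked by cultivar. It had 20.7, 64.1 and 17.6 FPKM in JL drought, against 11.7, 24.8 and 30.6 FPKM in JL control, with overlap. It had 2.04, 3.77 and 7.36 FPKM in SCS drought, against 7.09, 5.57 and 9.73 FPKM in SCS control, also with overlap. All 6 JL libraries were above all 6 SCS libraries. Of all tested genes, JL and SCS did not overlap in 27.6% with normal water and in 32.8% under drought. The share that did not overlap over both water supplies together was not computed. Means were 34.1 ± 26.0 FPKM in JL drought, 22.3 ± 9.71 in JL control, 4.39 ± 2.71 in SCS drought and 7.46 ± 2.10 in SCS control (SD, n = 3), and drought and control overlapped in each cultivar.

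**Figure D1:**
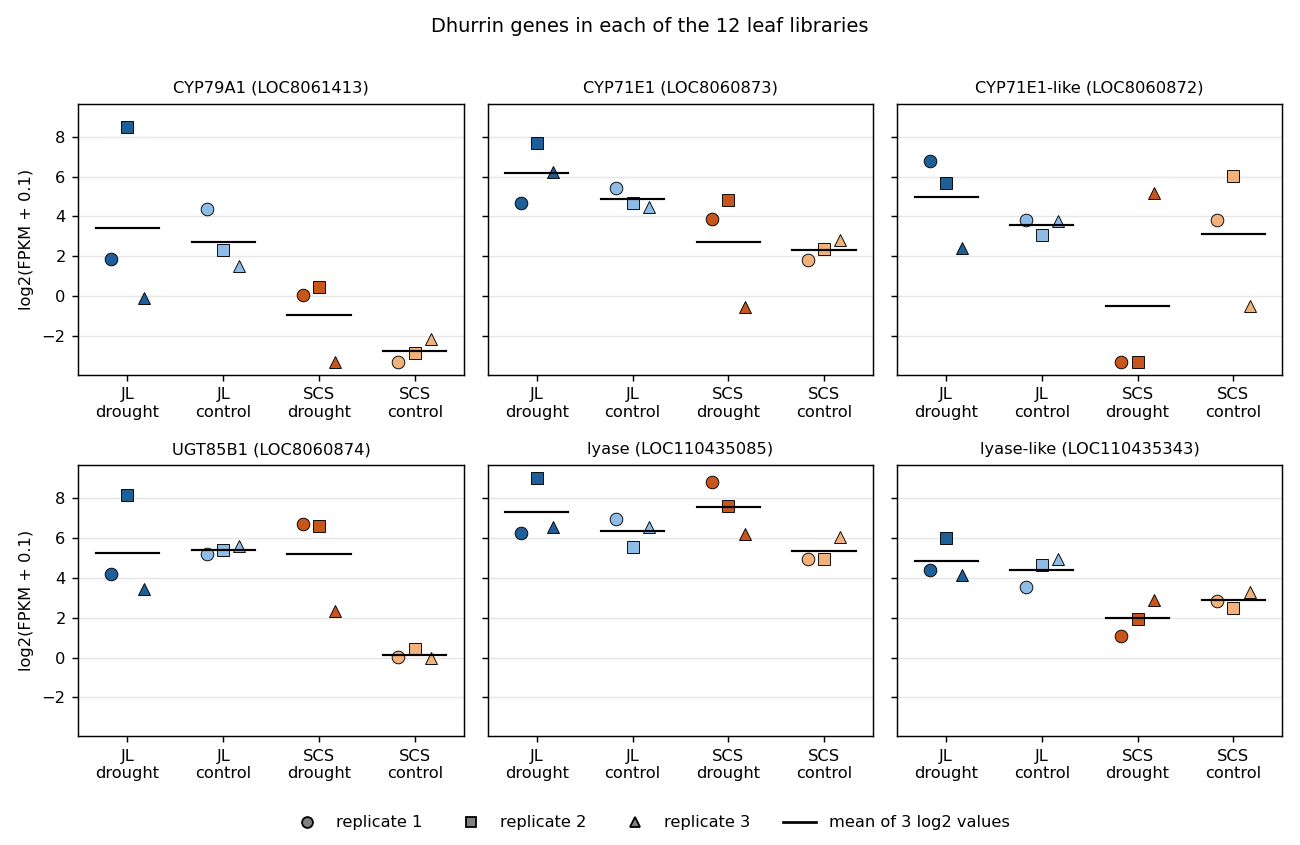
Each of the 6 panels plots 1 dhurrin gene as log2(FPKM + 0.1) in every library, with symbols for replicates 1 to 3 and a bar for the mean of the 3 log2 values. JL drought 2 is the highest JL library for every gene but CYP71E1-like, and UGT85B1 is at 4.87 to 105 FPKM in SCS drought and 0.881 to 1.27 FPKM in SCS control.

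Along the pathway, the genes did not keep 1 ratio. UGT85B1 was higher than CYP71E1 in all SCS drought libraries and lower than it in all SCS control libraries, a comparison chosen after the values were seen. The FPKM of UGT85B1 divided by that of CYP71E1 was 7.23, 3.48 and 8.36 in SCS drought, against 0.263, 0.249 and 0.127 in SCS control. In JL the same ratio was 0.726, 1.37 and 0.145 in drought, against 0.859, 1.62 and 2.23 in control, and the groups overlapped. An exact permutation test of 3 libraries against 3 cannot go below p = 0.1, so none was run on the ratios.

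The lyase stood well above UGT85B1 in SCS control and less so elsewhere. The lyase FPKM divided by the UGT85B1 FPKM was 4.26, 1.98 and 15.04 in SCS drought, against 34.4, 24.4 and 75.02 in SCS control. In JL it was 4.22, 1.87 and 8.76 in drought, against 3.38, 1.11 and 1.89 in control. The SCS groups did not overlap in this ratio and the JL groups did. CYP79A1 was below UGT85B1 in all libraries but JL drought 2, where UGT85B1 had 0.779 times the FPKM of CYP79A1.

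**Figure D2:**
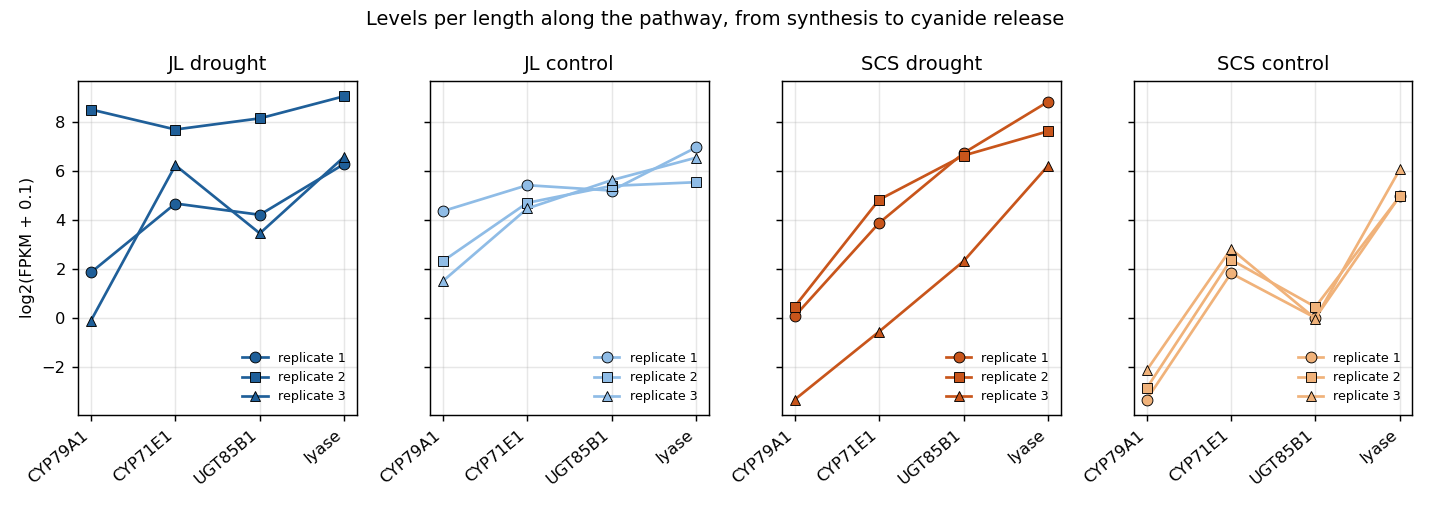
The 4 panels show the groups, and each line is 1 library followed from CYP79A1 over CYP71E1 and UGT85B1 to the lyase, as log2(FPKM + 0.1). JL drought 2 is high along the whole pathway, at 204 to 523 FPKM, and at UGT85B1 the lines of SCS drought climb while those of SCS control drop.

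Under drought in SCS, UGT85B1 rose and no other dhurrin gene passed the test. Its level was higher by 6.05 on the log2 scale (SE 1.18, adjusted p = 0.0278), in 3 of 3 drought libraries. The log2 fold change was 2.44 for the lyase (SE 0.806, adjusted p = 0.099), 3.74 for CYP79A1 (SE 2.45, adjusted p = 0.342) and 1.45 for CYP71E1 (SE 1.00, adjusted p = 0.405). For CYP71E1-like it was -1.23 (SE 2.04, adjusted p = 0.748) and for the lyase-like gene -0.80 (SE 0.593, adjusted p = 0.43). Thus 1 of the 6 genes was called, where 9.51% of all tested genes were, and 2 of 6, UGT85B1 and the lyase, had groups that did not overlap, where 33.8% of all tested genes did. The median log2 fold change was 1.95 over the 6 genes and -0.07 over all tested genes.

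These SCS results depended on single libraries. The call of UGT85B1 held in 7 of the 12 fits that left out 1 library, with log2 fold changes of 5.62 to 6.60 in all of them. The call was lost without SCS control 1 (adjusted p = 0.101), 2 (0.0854) or 3 (0.117) and without SCS drought 1 (0.0799) or 2 (0.0598). The lyase passed the test in 1 of those fits, without JL drought 2 (adjusted p = 0.0392). Without SCS drought 3 the remaining drought libraries had no count of CYP71E1-like and it passed the test as lower (adjusted p = 0.0345), and without SCS control 2 its log2 fold change was 0.65.

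Summed levels of marker genes of leaf cell types, and of seed storage and oil body genes, were above 0 in all 12 libraries. These sums also stood at other levels in SCS drought than in SCS control. The marker lists were made from product names, so they may hold genes of other cells and roles too. Sums are in CPM, counts scaled to library size with TMM. The 22 genes named as mesophyll enzymes of C4 photosynthesis summed to 5008 to 13980 CPM in SCS drought, against 33286 to 73675 CPM in SCS control. Of these 22 genes, 1 had no count in any library. The 10 bundle sheath genes summed to 3272 to 5355 CPM in SCS drought, against 5566 to 13407 CPM in SCS control, and 41 wax and cutin genes of the epidermis to 779 to 1513 CPM, against 461 to 710 CPM, with 7 of them at 0 throughout. Of 43 seed storage and oil body genes, 27 had no count in any library, and the rest summed to 269 to 1023 CPM in SCS drought, against 26.0 to 64.0 CPM in SCS control. Of 15 mesophyll genes tested 1 rose and 4 fell, of 10 bundle sheath genes 2 rose and 3 fell, of 24 epidermis genes 0 rose and 1 fell, and of 8 seed genes 3 rose and 0 fell, where 4.09% of all tested genes rose and 5.41% fell. The sums did not overlap between SCS drought and SCS control for any of the 4 lists, and their part in the dhurrin results was not tested. In bulk leaf RNA, fewer cells of a type and less RNA per cell cannot be told apart.

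Under drought in JL, none of the 6 genes passed the test, and 0 of 20873 tested genes did (0%), while 775 genes (3.71%) had an unadjusted p below 0.05 and DESeq2 called 44. The log2 fold change was 3.71 for CYP79A1 (SE 1.75), 1.76 for CYP71E1 (SE 0.998), 2.20 for CYP71E1-like (SE 2.04), 1.28 for UGT85B1 (SE 1.15), 1.41 for the lyase (SE 0.806) and 0.61 for the lyase-like gene (SE 0.589), each with an adjusted p of 1. In 0 of 6 genes did the libraries of JL drought and JL control separate, where 5.19% of all tested genes did. The median over the 6 genes was 1.59, against 0.04 over all tested genes. For CYP79A1, UGT85B1 and the lyase-like gene the sign depended on JL drought 2. Without it the log2 fold changes were -2.07 for CYP79A1, 0.76 for CYP71E1, 2.26 for CYP71E1-like, -1.52 for UGT85B1, 0.00 for the lyase and -0.21 for the lyase-like gene. Mesophyll markers summed to 98206 to 122731 CPM in JL drought, against 91566 to 134243 CPM in JL control, so these ranges overlapped. The bundle sheath, epidermis and seed lists overlapped between JL drought and JL control as well.

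The drought changes of the 2 cultivars were then tested against each other. No dhurrin gene passed this test (0 of 6, where 0.513% of all tested genes did; 107 genes in all). UGT85B1 had the lowest adjusted p of the 6, with a JL change below the SCS change (log2 difference -4.77, SE 1.64, adjusted p = 0.224). Without JL drought 2 this difference was -7.57 with an adjusted p of 0.043, and without SCS drought 3 it was -5.32 (adjusted p = 0.098). For the other genes the difference was -0.03 (CYP79A1, SE 3.01, adjusted p = 0.997), 0.31 (CYP71E1, SE 1.41, adjusted p = 0.946), 3.43 (CYP71E1-like, SE 2.89, adjusted p = 0.616), -1.03 (the lyase, SE 1.14, adjusted p = 0.703) and 1.41 (the lyase-like gene, SE 0.835, adjusted p = 0.451). Without JL drought 2 the difference was -5.79 for CYP79A1 (adjusted p = 0.222), -0.69 for CYP71E1 (0.844), 3.49 for CYP71E1-like (0.604), -2.44 for the lyase (0.222) and 0.60 for the lyase-like gene (0.709). Without SCS drought 3 it was -0.62 for CYP79A1 (adjusted p = 0.923), -0.26 for CYP71E1 (0.915), -1.46 for the lyase (0.482) and 2.00 for the lyase-like gene (0.22). For CYP71E1-like it was then 15.18 (adjusted p = 0.0644), a value that depends on the prior count, since SCS drought had 0 counts left. A call in SCS and none in JL therefore does not show that UGT85B1 responded differently in the cultivars over all 12 libraries.

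With normal water, 4 of the 6 genes had higher FPKM in every JL library than in every SCS library, namely CYP79A1, CYP71E1, UGT85B1 and the lyase-like gene. For all tested genes the libraries did not overlap in 27.6%, and JL lay above SCS in 12.3%. The log2 difference, JL minus SCS, was 7.37 for CYP79A1 (SE 2.41, adjusted p = 0.294), 5.34 for UGT85B1 (SE 1.18, adjusted p = 0.293), 2.50 for CYP71E1 (SE 1.00, adjusted p = 0.332) and 1.56 for the lyase-like gene (SE 0.59, adjusted p = 0.309). None of the 6 was called, where 0.0240% of all tested genes were (5 genes), and 3008 genes (14.4%) had an unadjusted p below 0.05. The lyase had a log2 difference of 0.99 (SE 0.806, adjusted p = 0.554) and CYP71E1-like one of -1.19 (SE 2.04, adjusted p = 0.79). In a fit of the control libraries alone UGT85B1 passed the test (log2 difference 5.33, adjusted p = 0.00739). Mesophyll markers summed to 91566 to 134243 CPM in JL control, against 33286 to 73675 CPM in SCS control. Bundle sheath markers summed to 15540.5 to 25971 CPM, against 5566 to 13407 CPM, and epidermis markers to 1003 to 1969 CPM, against 461 to 710 CPM. The seed list overlapped, at 56.1 to 127 CPM against 26.0 to 64.0 CPM. The part of these markers in the differences was not tested.

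Under drought, the lyase-like gene was higher in JL than in SCS by 2.97 on the log2 scale (SE 0.591, adjusted p = 0.0115), in 3 of 3 libraries. It was the only one of the 6 genes to be called or to have groups without overlap, where 18.8% of all tested genes were called and 32.8% did not overlap. The call held in all 12 fits that left out 1 library (2.16 to 3.55, highest adjusted p = 0.0459) but not in a fit of the drought libraries alone (2.94, adjusted p = 0.0632). CYP79A1 had a larger log2 difference, 7.34 (SE 1.80), with an adjusted p of 0.0502, and it was called without JL drought 1 (adjusted p = 0.0389) or 3 (0.0347), while without JL drought 2 the difference was 1.57. CYP71E1 had a log2 difference of 2.81 (SE 0.998, adjusted p = 0.0908) and CYP71E1-like one of 2.24 (SE 2.04, adjusted p = 0.493), and CYP71E1-like was called without SCS drought 3 (adjusted p = 0.0225). UGT85B1 (0.57, SE 1.15, adjusted p = 0.765) and the lyase (-0.04, SE 0.805, adjusted p = 0.978) had differences within their errors, and without JL drought 2 the difference was -2.23 for UGT85B1 (adjusted p = 0.142), -1.45 for the lyase (0.198) and 1.81 for CYP71E1 (0.259). Without SCS drought 3 it was 0.01 for UGT85B1 (adjusted p = 0.995), -0.47 for the lyase (0.721) and 6.74 for CYP79A1 (0.0957). Mesophyll markers summed to 98206 to 122731 CPM in JL drought, against 5008 to 13980 CPM in SCS drought. Bundle sheath markers summed to 16942 to 27136 CPM, against 3272 to 5355 CPM. Epidermis markers overlapped, at 1087 to 2813 CPM against 779 to 1513 CPM. The seed list went the other way without overlap, at 25.5 to 252 CPM against 269 to 1023 CPM. The part of the markers in these differences was not tested. The comparisons share libraries, since each group enters several of them.

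**Figure D3:**
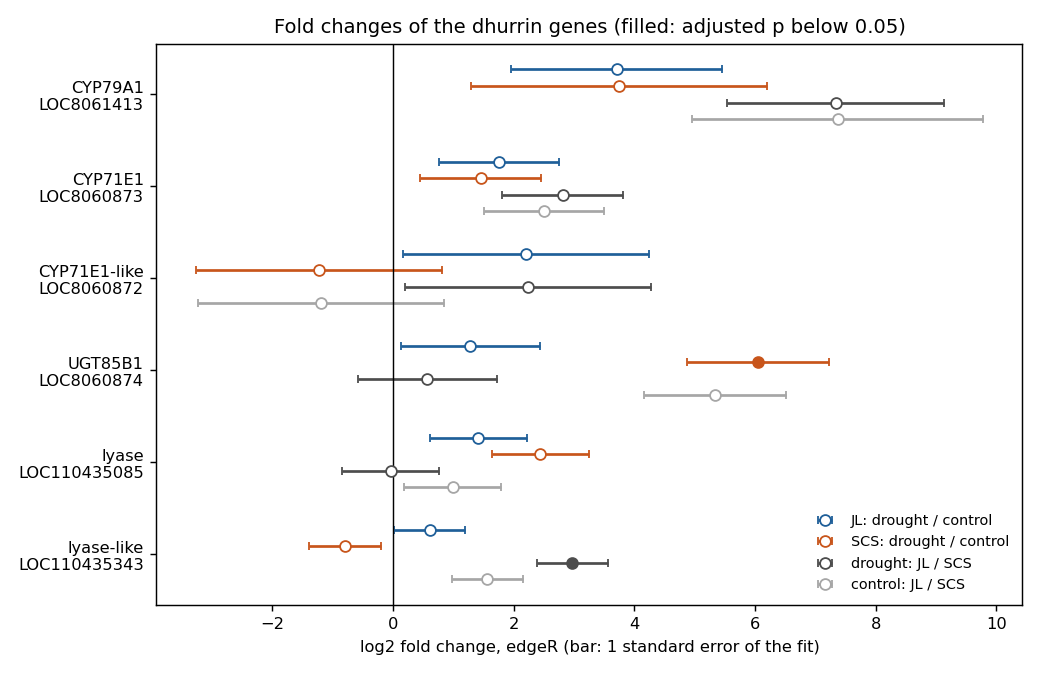
The plot gives log2 fold changes from edgeR for each dhurrin gene in drought against control of JL and of SCS and in JL against SCS under drought and with normal water, with a bar of 1 SE to each side and a filled point where the adjusted p was below 0.05. The filled points are UGT85B1 in SCS drought (6.05) and the lyase-like gene in JL against SCS under drought (2.97).

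The genes of synthesis are known to lie together in the sorghum genome, in a cluster that also holds genes for a glutathione S-transferase and a transporter of the MATE family. CYP79A1 and UGT85B1 were 6.04 kb apart, CYP71E1 lay 93.3 kb before CYP79A1 and CYP71E1-like 14.7 kb before CYP71E1, and the 4 genes spanned 123 kb. The next named gene, LOC110430195 (glutathione S-transferase 1-like), began 15.5 kb after UGT85B1 and was among the most abundant neighbours. It had 1130, 1450 and 502 FPKM in SCS drought, against 360, 238 and 536 FPKM in SCS control, so that drought libraries 1 and 2 were high and library 3 overlapped control (log2 fold change 1.41, SE 0.43, adjusted p = 0.0701). It had 520, 686 and 968 FPKM in JL drought, against 674, 715 and 644 FPKM in JL control (0.11, SE 0.43, adjusted p = 1). LOC110430191 (DETOXIFICATION 40-like, the MATE family), named after its values were seen, had 7.43, 12.2 and 0.768 FPKM in SCS drought, against 3.78, 3.89 and 6.68 FPKM in SCS control (0.47, SE 0.798, adjusted p = 0.75). In JL, LOC110430191 averaged 14.2 ± 11.8 FPKM in drought and 12.4 ± 1.58 FPKM in control (SD, n = 3; 0.21, SE 0.796), with overlap. For both neighbours SCS drought 3 was the lowest of its group, as it was for CYP79A1, CYP71E1 and UGT85B1. The same held for the lyase, which lies on chromosome 4, so this pattern was not limited to the cluster. The share of all tested genes that were lowest in that library was not computed.

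Of 65 genes that start within 100 kb of any of the 6, 48 were tested, and in SCS drought 5 fell and 0 rose (median -0.04 on the log2 scale), where 5.41% of all tested genes fell and 4.09% rose. The 5 were LOC8060870 (aspartokinase 2, of amino acid synthesis) at -2.57 (SE 0.402, adjusted p = 0.00758), LOC8060866 (a chloroplast glutaredoxin) at -0.97 (SE 0.234, adjusted p = 0.03), LOC8060869 (random slug protein 5) at -1.18 (SE 0.206, adjusted p = 0.00969), LOC8080155 (translation initiation factor IF-2) at -1.34 (SE 0.33, adjusted p = 0.0332) and the uncharacterized LOC8084664 at -2.26 (SE 0.604, adjusted p = 0.0488). Aspartokinase 2 had 3.22, 2.89 and 5.21 FPKM in SCS drought, against 24.6, 19.8 and 21.0 FPKM in SCS control, without overlap and opposite in direction to UGT85B1. LOC8056405 (a chloroplast ribosomal protein), the other neighbour of highest FPKM, stood at -1.76 (SE 0.555, adjusted p = 0.0794). None of the 48 was called in JL drought.

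**Figure D4:**
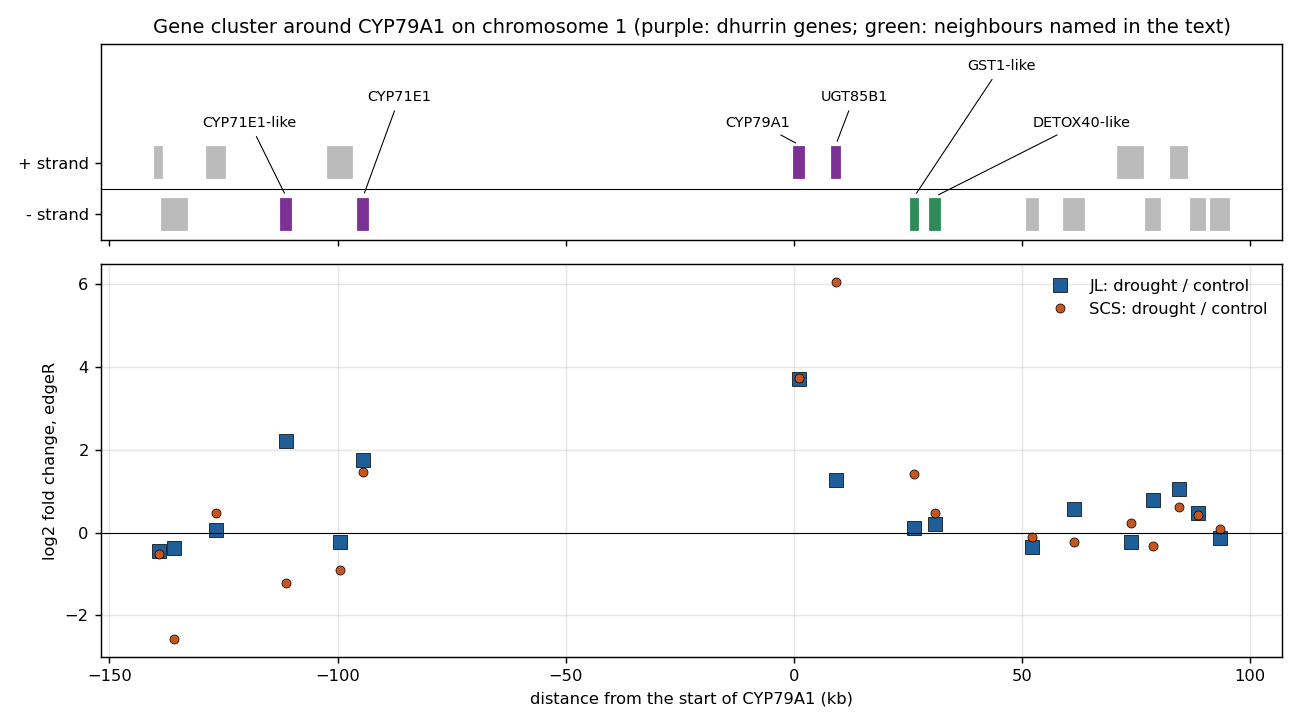
The upper panel maps the genes around CYP79A1 on chromosome 1 by strand, as distance in kb from the start of CYP79A1, with dhurrin genes in purple, the glutathione S-transferase and MATE genes in green and other genes in grey. The lower panel gives the log2 fold change of each tested gene for drought against control in JL and in SCS, where UGT85B1 stands at 1.28 in JL and 6.05 in SCS.

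The 6 genes were next set against the other steps that feed dhurrin synthesis or use its products. Of 104 such genes, 74 were tested. In SCS drought 1 rose and 1 fell (median -0.26 on the log2 scale), where 4.09% of all tested genes rose and 5.41% fell. In JL drought 0 of 74 were called and the median was 0.12. The lists were made from product names, so they hold genes of other pathways too.

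The list called tyrosine supply held 15 tested genes of 19, of which 0 rose and 1 fell in SCS drought (median -0.41). This list also holds dehydratases of the phenylalanine branch and decarboxylases that use tyrosine, so its median does not describe tyrosine synthesis alone. The gene that fell was LOC8064969, arogenate dehydrogenase 2, which makes tyrosine from arogenate. It had 0.848, 0.849 and 0.436 FPKM in SCS drought, against 3.70, 3.02 and 7.26 FPKM in SCS control, without overlap (-2.74, SE 0.529, adjusted p = 0.0159). Without SCS control 3 or SCS drought 1, 0 genes of these lists fell. In JL it averaged 8.67 ± 2.64 FPKM in drought and 9.78 ± 5.27 FPKM in control (SD, n = 3; -0.16, SE 0.517, adjusted p = 1). LOC8064968 and LOC8072682, named after their values were seen, have the same product name but stood higher in SCS drought, without passing the test. LOC8064968 averaged 18.4 FPKM in SCS drought and 6.78 FPKM in SCS control, with overlap (1.41, SE 0.566, adjusted p = 0.153). For LOC8072682 the log2 fold change was 0.71 (SE 0.378, adjusted p = 0.269). LOC8079243 (chorismate mutase 3, at the entry to tyrosine and phenylalanine synthesis) stood at -0.54 on the log2 scale in SCS drought (SE 0.347, adjusted p = 0.359), and LOC8075256 (arogenate dehydratase 6, of the phenylalanine branch) had a value of -2.62 (SE 0.749, adjusted p = 0.0635). LOC8067546 (tyrosine decarboxylase 1, which draws on the same tyrosine), named after its values were seen, had 917, 651 and 35 counts in SCS drought, against 0 counts in each SCS control library. Against a floor of 3 counts over the control group it was at least 568-fold higher, but its adjusted p was 0.0578. Like CYP79A1 it was high in JL drought 2, with 8, 397 and 0 counts in JL drought, against 5, 2 and 0 counts in JL control.

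Electron supply to the P450 enzymes comes from NADPH cytochrome P450 reductase, and 3 of 3 such genes were tested with 0 called in SCS drought (median -0.24). LOC8068503 averaged 120 ± 11.7 FPKM in SCS drought and 95.1 ± 3.66 FPKM in SCS control (SD, n = 3; 0.30, SE 0.265, adjusted p = 0.524). LOC8077255 averaged 61.7 ± 19.8 FPKM in SCS drought and 71.1 ± 17.8 FPKM in SCS control (-0.24, SE 0.321, adjusted p = 0.679). The third, LOC8057875, named after its values were seen, had 23.0, 15.3 and 18.6 FPKM in SCS drought, against 34.7, 98.9 and 40.1 FPKM in SCS control. Its groups did not overlap, but it did not pass the test (-1.65, SE 0.544, adjusted p = 0.0918). It averaged 106 ± 69.7 FPKM in JL drought, and under drought it was called higher in JL than in SCS (SD, n = 3; 2.49, SE 0.544, adjusted p = 0.0154). Genes whose products are named as like the synthesis enzymes were mostly silent, with 3 tested of 13 and 0 called in SCS drought (median -0.40). The highest were LOC8057306 (-0.40, SE 0.751, adjusted p = 0.781) and LOC8084632 (0.64, SE 1.13, adjusted p = 0.765), both oxime monooxygenase-like and on chromosome 2. LOC8084632 had 0.853, 23.0 and 2.05 FPKM in JL drought, against 6.55, 1.80 and 0.771 FPKM in JL control, so that JL drought 2 was high here as well.

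A beta-glucosidase starts the release of cyanide, but no product in the table is named dhurrinase, the enzyme that does this in sorghum. Whether dhurrinase is among the genes named beta-glucosidase is therefore not known, and their median does not describe that step. Of 41 beta-glucosidase genes, some of them named probable inactive, 28 were tested, and in SCS drought 1 rose and 0 fell (median -0.12). The gene that rose was LOC110431790, named beta-glucosidase BoGH3B-like after a bacterial enzyme, and whether it acts on dhurrin is not known from this name. It had 98.02, 33.4 and 122 FPKM in SCS drought, against 0.868, 0.550 and 1.66 FPKM in SCS control, without overlap (6.32, SE 1.42, adjusted p = 0.0499). This call did not hold under RLE or upper-quartile scaling or with no filter, where 0 genes of all these lists rose. Nor did it hold in 8 of the 12 fits that left out 1 library, namely each SCS control library, SCS drought 1 or 2, and each JL control library. In JL it had 2.40, 104 and 0.192 FPKM in drought, against 3.14, 1.98 and 3.05 FPKM in control, with JL drought 2 again the only high library (3.69, SE 1.41, adjusted p = 1). The most abundant beta-glucosidase gene, LOC110432520 (beta-glucosidase 31-like), had 643, 404 and 706 FPKM in SCS drought, against 117, 195 and 41.6 FPKM in SCS control. Its groups did not overlap, but it did not pass the test (2.27, SE 0.838, adjusted p = 0.132). LOC8082425 (beta-glucosidase 5) stood at -0.51 in SCS (SE 0.294, adjusted p = 0.304).

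The lyase had 2 relatives by name outside the 6 genes, and 0 of the 2 was called in SCS drought (median 1.69). LOC8069366, (R)-mandelonitrile lyase-like, averaged 3.91 ± 2.35 FPKM in SCS drought and 0.571 ± 0.480 FPKM in SCS control (SD, n = 3; 2.74, SE 0.986, adjusted p = 0.126). LOC8066733, named as like the lyase and on chromosome 5, had 1.22, 2.38 and 0.163 FPKM in JL drought, against 13.6, 0.141 and 11.8 FPKM in JL control (-2.76, SE 1.51, adjusted p = 1), and was at most 1.21 FPKM in SCS.

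Plants detoxify cyanide with cyanoalanine synthase and nitrilases of the NIT4 type, and rhodanese-like proteins are named after a cyanide-using activity. Of 26 such genes, 23 were tested, with 0 called in SCS drought (median -0.35). LOC8074793 (NIT4), the most abundant of them, averaged 264 ± 134 FPKM in SCS drought and 311 ± 33.5 FPKM in SCS control (SD, n = 3; -0.28, SE 0.447, adjusted p = 0.738). LOC110434689 (NIT4-like) averaged 248 ± 110 FPKM in SCS drought and 174 ± 16.6 FPKM in SCS control (0.47, SE 0.337, adjusted p = 0.414). Between the cultivars under drought, 6 genes of this list were higher in JL and 0 lower, and all 6 were rhodanese-like proteins, such as LOC8063469 at 138 FPKM in JL drought and 10.01 FPKM in SCS drought (3.79, SE 0.585, adjusted p = 0.00468), a gene named after its values were seen. Over all 74 genes, 13 were higher and 2 lower in JL than in SCS under drought, where 11.2% of all tested genes were higher and 7.55% lower.

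**Figure D5:**
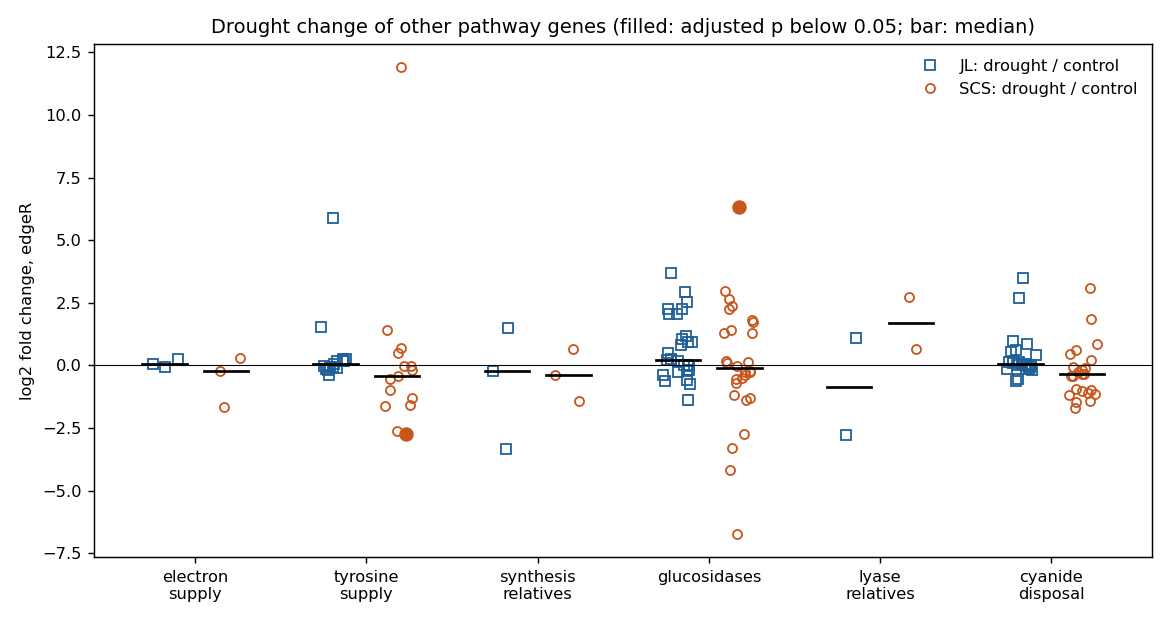
Each point is the log2 fold change of 1 tested gene for drought against control in JL (squares) or SCS (circles), by list, with a bar at the median and a filled point where the adjusted p was below 0.05. The filled points are beta-glucosidase LOC110431790 (6.32) and arogenate dehydrogenase 2 (-2.74), both in SCS. The open circle at 11.9 is tyrosine decarboxylase LOC8067546, whose fitted value depends on the prior count, since SCS control had 0 counts.

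How the 6 genes varied together is given over the 12 libraries as Pearson's r of log2 CPM, without a p, since the libraries share groups and the direction within groups described above. UGT85B1 and the lyase had an r of 0.813, which was 0.824 after group means were removed and 0.751 without JL drought 2. CYP79A1 and CYP71E1 had an r of 0.820, which was 0.621 after group means were removed and 0.751 without JL drought 2. CYP71E1 and CYP71E1-like had an r of -0.0422 over the 12 libraries, which was -0.234 without JL drought 2 and -0.0749 without the 2 farthest libraries. After group means were removed it was -0.715. With the leading direction within groups, computed without the 6 genes, r was 0.814 for CYP71E1, 0.650 for CYP79A1, 0.626 for the lyase, 0.623 for UGT85B1, 0.167 for the lyase-like gene and -0.644 for CYP71E1-like, each after group means were removed. Without JL drought 2 these values were 0.788 for CYP71E1, 0.515 for CYP79A1, 0.496 for the lyase, 0.488 for UGT85B1, -0.113 for the lyase-like gene and -0.776 for CYP71E1-like.

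Of 10555 genes with a mean of at least 5 CPM, those with a described product most like each dhurrin gene over the 12 libraries were sought. For UGT85B1 they were LOC8056748 (RABF2b, a small GTPase of vesicle traffic) with an r of 0.944, LOC8064763 (trichome birefringence-like 28) with 0.923 and LOC8080051 (EXORDIUM) with 0.915, and these were 0.947, 0.924 and 0.942 without the 2 libraries farthest from the median. For the lyase they were LOC110433819 (a sufE-like protein, 0.917), LOC110429932 (patatin-like protein 3, 0.904) and LOC8061030 (serine decarboxylase 1, 0.896), and without the 2 farthest libraries 0.836, 0.686 and 0.793. For CYP79A1 they were LOC8057825 (protein-L-isoaspartate O-methyltransferase 1, 0.943), LOC8074536 (RING1-like, 0.933) and LOC8066441 (methyltransferase-like protein 7A, 0.929), and the last had 0.720 without JL drought 2 and JL control 1.

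For CYP71E1 the most alike were LOC8058492 (the potassium channel AKT2, 0.944), LOC8060711 (folate-biopterin transporter 1, 0.931) and LOC8055792 (plastidic glucose transporter 1, 0.929). For CYP71E1-like they were LOC8062747 (cytochrome P450 71A1, 0.941), LOC8085095 (the ubiquitin ligase LUL3, 0.937) and LOC8060252 (the transcription factor WRKY76, 0.925). For the lyase-like gene they were LOC8078684 (the transcription factor bHLH128, 0.929), LOC8054114 (a bisphosphate nucleotidase, 0.920) and LOC8066635 (bHLH68, 0.914). No dhurrin gene was among the 3 genes most like another dhurrin gene.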

How the data were processed

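Leaf RNA of 12 libraries was measured, 3 in each of 4 groups. Raw gene counts and FPKM were deposited by the authors. Tools listed in the submitters' processing notes, without their roles, are StringTie 1.3.3b, HISAT2 2.0.4 and STAR. The program that counted reads, its use of strand and the build were not given in the sources used here. Values of FPKM deposited by the authors equalled count over gene length and 1 constant per library, 0.9986 to 1.037 times the TMM-scaled total, so FPKM were compared between libraries and between genes.

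Counts of all 12 libraries were fitted in R 4.3.3 with the edgeR 4.0.16 quasi-likelihood F test, with TMM scaling, filterByExpr and 1 mean per group. Of 33897 genes, 20873 were tested and 13024 removed. All 6 dhurrin genes were tested. The call threshold was 0.05 on p-values adjusted by Benjamini and Hochberg's method over every gene tested. There were 5 comparisons: drought against control in each cultivar, JL against SCS under each water supply, and the difference of the 2 drought changes. Errors of log2 fold changes are standard errors (SE) of the fit. Means are ± SD.

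The genes and lists were chosen with earlier results of these data known. Named are all 6 genes, every other pathway or neighbouring gene called in a within-cultivar drought comparison, the 2 genes of highest mean FPKM per list and the 3 of highest mean FPKM among neighbours within 100 kb. Glucanases and other false matches were dropped from the glucosidase list. Other genes are named as chosen after their values were seen. The results were recomputed with DESeq2 1.42.0, other scalings (upper-quartile, RLE), without a filter, with a stricter one, on the compared libraries alone, with a replicate block, with limma 3.58.1 on log2(FPKM + 1) and log2(FPKM + 0.1), and leaving out each library. The test was tried on simulated counts. Floors for counts of 0 cover counting error only.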

Additional observations from a re-analysis of the deposited data

How the results depend on the processing

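Of 263 values of the 6 genes under alternatives other than leaving out a library, 248 kept their direction and side of the threshold, 9 passed the test in addition, 1 no longer passed and 5 changed sign. The UGT85B1 change in JL drought was -0.10 and -0.13 with limma on log2(FPKM + 1) and log2(FPKM + 0.1). CYP79A1 in the test of the difference between drought changes was 0.25 with log2(FPKM + 1). CYP71E1-like in JL against SCS control was 0.12 and 0.44 with the same 2 limma fits. The cause was not tested. DESeq2 called the lyase in SCS drought (adjusted p = 0.0156). It screened CYP79A1 and UGT85B1 out as having outlying counts, and without that screen, a choice made after the data were seen, UGT85B1 was called in SCS drought (adjusted p = 1.19e-06), in JL against SCS control (0.000361) and in the difference between drought changes (0.0345).

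Counts of called genes moved more. In SCS drought DESeq2 called 4065 genes in place of 1984, in JL drought 44 in place of 0, for the difference between drought changes 1357 in place of 107, in JL against SCS control 700 in place of 5, and in JL against SCS drought 6055 in place of 3916. Limma called 263 and 257 genes for the difference between drought changes and 13 and 12 in JL against SCS control. The compared libraries alone gave 11 genes in JL against SCS control and 1247 in JL against SCS drought. Of the 6 dhurrin genes, the compared libraries alone called 1 in JL against SCS control and 0 in JL against SCS drought, where DESeq2, the stricter filter and limma on log2(FPKM + 1) each called 2. Of the 74 other pathway genes, SCS drought gave 13 with DESeq2, 1 with RLE and 1 with upper-quartile scaling, 6 with the compared libraries alone and 5 with limma on log2(FPKM + 1), in place of 2. DESeq2 called 1 of them for the difference between drought changes and 2 in JL against SCS control, and the drought libraries alone gave 7 in JL against SCS drought.

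The replicate numbers did not pair the libraries: same-numbered libraries of different groups had correlations of -0.507 to 0.391, and 6 of 18 were above 0.1. With the replicate block UGT85B1 in SCS drought was 5.66 (adjusted p = 0.0461) and the lyase-like gene in JL against SCS drought 3.05 (0.0154), and the block called 17 genes for the difference between drought changes and 0 in JL against SCS control.

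Leaving out each of the 12 libraries in turn, 533 to 2619 genes were called in SCS drought, 0 to 2 in JL drought, 8 to 424 for the difference between drought changes, 0 to 6 in JL against SCS control and 1811 to 3619 in JL against SCS drought. Of the 6 dhurrin genes, 0 to 2, 0, 0 to 1, 0 and 1 to 2 were called in these comparisons, and of the 74 pathway genes 0 to 6, 0, 0 to 1, 0 and 7 to 16. Of 360 values of the 6 genes, 18 changed sign, and the genes and comparisons they belong to had these ranges. In SCS drought CYP71E1-like ran from -12.98 to 0.65. In JL drought CYP79A1 ran from -2.07 to 4.97, UGT85B1 from -1.52 to 1.81 and the lyase-like gene from -0.21 to 0.91. For the difference between drought changes CYP79A1 ran from -5.79 to 1.24 and CYP71E1 from -0.69 to 1.24. In JL against SCS, CYP71E1-like with normal water ran from -1.79 to 0.69, and under drought UGT85B1 ran from -2.23 to 1.10 and the lyase from -1.45 to 0.80. The value of -12.98 belongs to a fit in which SCS drought had 0 counts and depends on the prior count. The biological coefficient of variation was 63.3%. Single libraries had low counts of CYP79A1 (0 to 55 in SCS), CYP71E1-like (0 in SCS drought 1 and 2, 25 in SCS control 3), CYP71E1 (28 in SCS drought 3) and UGT85B1 (29 to 57 in SCS control).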
